A study of Mus musculus with 4 samples.

Results

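The genes described here are 30 genes of cholesterol synthesis, sensing, transport and export, taken by their symbols from the 45706 genes counted in E17 mouse lungs. Lung RNA came from the left lobes of C57BL/6 embryos at embryonic day 17. The 2 *Myh10+/+* lungs were wild type, and the 2 *Myh10-/-* lungs were homozygous for L458R, a missense mutation in the motor domain that arose in a screen with the mutagen ENU and is carried in the germline, hence by every cell type of the lung. Counts per gene do not show this allele, so the genotypes rest on the labels. *Myh10* encodes the heavy chain of non-muscle myosin II-B, and the mutant was used to ask which transcripts differ in the lung at the saccular stage. Each value is a read count from whole lobe tissue, so that fewer cells of a type and less RNA per cell cannot be told apart. Levels are given in CPM, the read count of a gene scaled with TMM factors to the same library size in every lung, and fold changes are *Myh10-/-* over *Myh10+/+*.

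Cholesterol is made from acetyl-CoA through mevalonate, isoprenoid diphosphates, squalene and lanosterol, by enzymes of the endoplasmic reticulum and cytosol. Most of these genes are switched on by SREBP2, the product of *Srebf2*, when membrane sterol is low. SCAP then escorts SREBP2 to the Golgi, whereas INSIG proteins hold both back when sterol is high. Surplus sterol is exported by ABCA1 and ABCG1, whose genes are targets of the LXR receptors encoded by *Nr1h3* and *Nr1h2*. In the late fetal lung, alveolar type 2 (AT2) cells build up surfactant, a lipid film in which cholesterol is the main neutral lipid.

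All 30 genes passed the minimum mean of 5 counts, with between 105 and 7048 reads in a lung. The fold changes were small and leaned to one side. In *Myh10-/-* lungs, 25 of the 30 genes (83.3%) had a lower estimate, against 49.5% of the 18763 genes tested, and the median log2 fold change was -0.10 against 0.002 over all tested genes. *Insig1*, which encodes a sterol-dependent brake on SREBP2, was the 1 gene of the 30 (3.33%) that fell past an adjusted p-value of 0.05 in the quasi-likelihood test of edgeR, where 1.34% of all tested genes fell. An unadjusted p-value under 0.05 with a lower estimate was found for 8 of the 30 (26.7%), against 9.02% of tested genes, and for none with a higher estimate. These 8 were *Insig1*, *Srebf2*, *Hmgcs1*, *Mvd*, *Fdft1*, *Abcg1*, *Lss* and *Msmo1*. Of all tested genes, 3104 had an unadjusted p-value under 0.05 in either direction (edgeR), 1693 of them with a lower estimate. In 13 genes (43.3%) both *Myh10-/-* lungs lay below both *Myh10+/+* lungs, as did 24.3% of tested genes. In 2 genes both lay above, as in 4490 of the 18763 genes tested.

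Among the libraries, the total count on genes ranged from 19116971 to 32055306. At an adjusted p-value under 0.05, 252 genes fell and 56 rose in the mutant lungs. When counts were scaled by library totals and not by TMM, 234 fell and 112 rose, and *Insig1* again was the 1 gene of the 30 that passed. *Xist* was high in *Myh10+/+* lung 1 and *Myh10-/-* lung 2, at 3916 and 4457 CPM, and low in the other lungs, at 1.84 and 4.10 CPM.

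*Myh10+/+* lung 1 stood above its replicate for these genes. It had the higher level of the 2 wild-type lungs for 18 of the 20 synthesis enzymes and for 24 of all 30 genes. Without this lung, 18 of the 30 genes had a lower estimate in *Myh10-/-* lungs, and the median log2 fold change was -0.07 for the 30 genes and 0.015 for the 20 enzymes, against -0.10 for both groups with all lungs. The lean of the enzymes to lower values, as a median, did not hold without this lung, and *Sqle* was at 0.054. Without this lung the estimates of *Insig1* (-0.36), *Srebf2* (-0.17), *Hmgcs1* (-0.17) and *Mvd* (-0.25) stayed below 0. So did those of *Fdft1* (-0.23), *Lss* (-0.12), *Msmo1* (-0.12) and *Abcg1* (-0.12). These are the genes that had an unadjusted p-value under 0.05 with all lungs (edgeR). In each of them both *Myh10-/-* lungs lay below both *Myh10+/+* lungs. Leaving this lung out therefore could not change their sign, and the kept direction is no check on them.

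**Figure D1:**
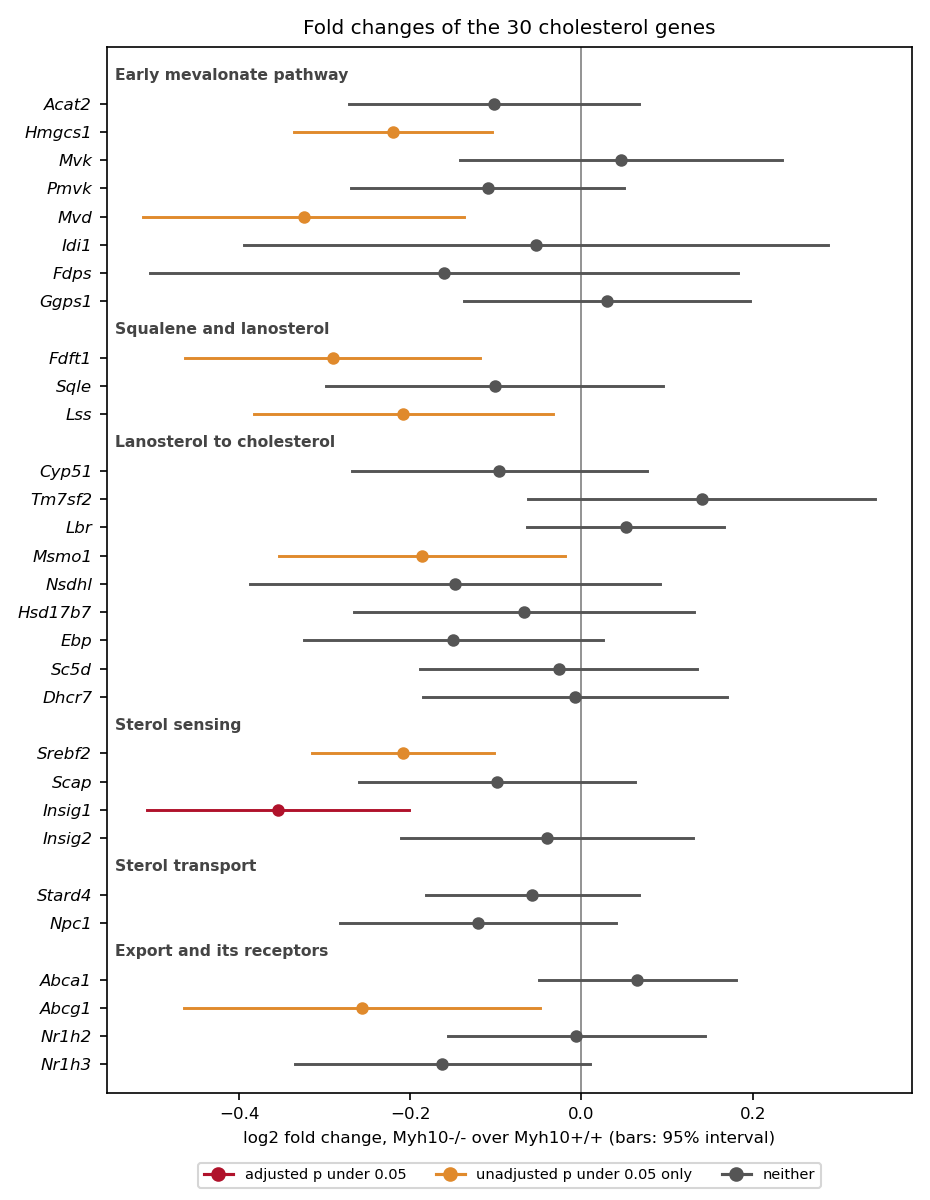
Log2 fold change of each of the 30 genes, *Myh10-/-* over *Myh10+/+*, on the horizontal axis, grouped by step of the pathway, with points for the estimate and bars for the 95% interval (2 lungs per genotype). *Insig1* is the single gene past an adjusted p-value of 0.05, 7 further genes have an unadjusted p-value under 0.05, and the 5 genes with estimates above 0 all have intervals that include 0.

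The promoters of the 3 genes with the lowest p-values are shown because SREBP2, CCAAT-binding NF-Y and GC-box-binding factors are known to act together at promoters of this pathway. *Insig1* was set by rule, and the other two were added after their values had been seen. Sequences are RefSeq promoters on GRCm38.p6, from 250 bases before to 50 bases after the transcription start, 5′ to 3′ on the gene's strand. Capitals mark the sterol regulatory element TCACNCCAC, the CCAAT box CCAAT and the GC box GGGCGG, each searched on both strands, and none of these motifs contains another.
*Insig1*, chr5:28071162-28071461, plus strand: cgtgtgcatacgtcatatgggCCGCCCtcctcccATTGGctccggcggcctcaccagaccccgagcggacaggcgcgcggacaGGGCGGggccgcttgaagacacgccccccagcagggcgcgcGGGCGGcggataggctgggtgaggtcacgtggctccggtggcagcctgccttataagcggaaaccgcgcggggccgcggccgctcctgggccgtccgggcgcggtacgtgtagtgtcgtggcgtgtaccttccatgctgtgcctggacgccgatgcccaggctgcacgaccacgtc
*Srebf2*, chr15:82147019-82147318, plus strand: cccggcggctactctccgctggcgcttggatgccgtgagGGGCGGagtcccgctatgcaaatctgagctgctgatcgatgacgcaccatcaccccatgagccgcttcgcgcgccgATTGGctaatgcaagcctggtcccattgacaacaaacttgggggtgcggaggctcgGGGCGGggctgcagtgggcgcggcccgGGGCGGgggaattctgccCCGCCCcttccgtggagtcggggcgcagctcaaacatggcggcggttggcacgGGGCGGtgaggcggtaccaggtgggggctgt
*Hmgcs1*, chr13:119690101-119690400, plus strand: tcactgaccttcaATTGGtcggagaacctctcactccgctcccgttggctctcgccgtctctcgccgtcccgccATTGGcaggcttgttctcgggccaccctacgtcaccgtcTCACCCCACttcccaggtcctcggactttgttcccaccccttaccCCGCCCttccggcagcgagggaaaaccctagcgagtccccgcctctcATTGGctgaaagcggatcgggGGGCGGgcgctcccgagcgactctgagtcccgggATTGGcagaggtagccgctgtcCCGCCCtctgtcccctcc
In these windows *Insig1* held 1 CCAAT box and 3 GC boxes, *Srebf2* held 1 and 5, and *Hmgcs1* held 4 and 3. *Hmgcs1* also held the single match to TCACNCCAC, which began 137 bases before the start. The promoter table matched 24 of the 30 genes with 31 promoters. A GC box was found in 23 of these 31 (74.2%), against 35.7% of the 32851 promoters in the table, and a CCAAT box in 19 (61.3%), against 37.4%. The element TCACNCCAC was found in 1 of the 31 (3.23%), against 1.24% of all promoters. No mismatch was allowed, so variants of these motifs are not counted, and the matches describe letters in a window and not bound sites.

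By summed CPM, the sensing genes had the lowest level relative to wild type of the groups in the pathway. The genes of the step to squalene and lanosterol were close, at 87.9%. By median log2 fold change that step was the lower, at -0.21 against -0.15 for the sensing genes. Together, *Srebf2*, *Scap*, *Insig1* and *Insig2* summed to 361 and 354 CPM in *Myh10+/+* lungs and to 308 and 311 CPM in *Myh10-/-* lungs, which is 86.5% of the *Myh10+/+* mean. All of them had lower estimates, and both genotypes were separate in *Srebf2*, *Scap* and *Insig1* but not in *Insig2*.

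*Insig1* (ENSMUSG00000045294) lies on chromosome 5 from 28071363 to 28078662 on GRCm38, on the plus strand. Its level was 87.5 CPM in each *Myh10+/+* lung and 64.5 and 72.4 CPM in the *Myh10-/-* lungs. The means were 87.5 ± 0.0156 and 68.4 ± 5.57 CPM (SD, n = 2). The *Myh10+/+* lungs were alike and both *Myh10-/-* lungs lay below them, at 78.2% of the wild-type mean. The log2 fold change was -0.35 (standard error 0.07, 95% interval -0.51 to -0.20, adjusted p = 0.0296, edgeR). Without *Myh10+/+* lung 1 the call was lost, and the log2 fold change was -0.36. Because the *Myh10+/+* lungs were alike, leaving out either of them had to keep this size. The estimate was -0.27 without *Myh10-/-* lung 1 and -0.44 without *Myh10-/-* lung 2.

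*Insig2*, which encodes the second INSIG protein, had 40.7 and 44.4 CPM in *Myh10+/+* lungs and 42.4 and 40.3 CPM in *Myh10-/-* lungs. Its genotypes overlapped, and the log2 fold change was -0.04 (95% interval -0.21 to 0.13). The level of *Insig1* divided by that of *Insig2* within a lung was 2.15 and 1.97 in *Myh10+/+* lungs and 1.52 and 1.80 in *Myh10-/-* lungs. This pair was compared after its values had been seen, and the ratio is given without a test.

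*Srebf2* (ENSMUSG00000022463, chromosome 15, 82147181 to 82205379), the gene of the transcription factor SREBP2, had 192 and 182 CPM in *Myh10+/+* lungs. It had 164 and 160 CPM in *Myh10-/-* lungs, 86.6% of the wild-type mean. The log2 fold change of -0.21 (standard error 0.05, 95% interval -0.31 to -0.10) had an unadjusted p of 0.00106 and an adjusted p of 0.0575 from edgeR, which missed the threshold. *Scap*, which encodes the escort of SREBP2, had 41.1 and 39.7 CPM in *Myh10+/+* lungs and 37.7 CPM in each *Myh10-/-* lung, and its log2 fold change of -0.10 had an interval from -0.26 to 0.06. A transcript on the opposite strand covers 985 bases of the exons of *Scap*, so its count is uncertain.

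**Figure D2:**
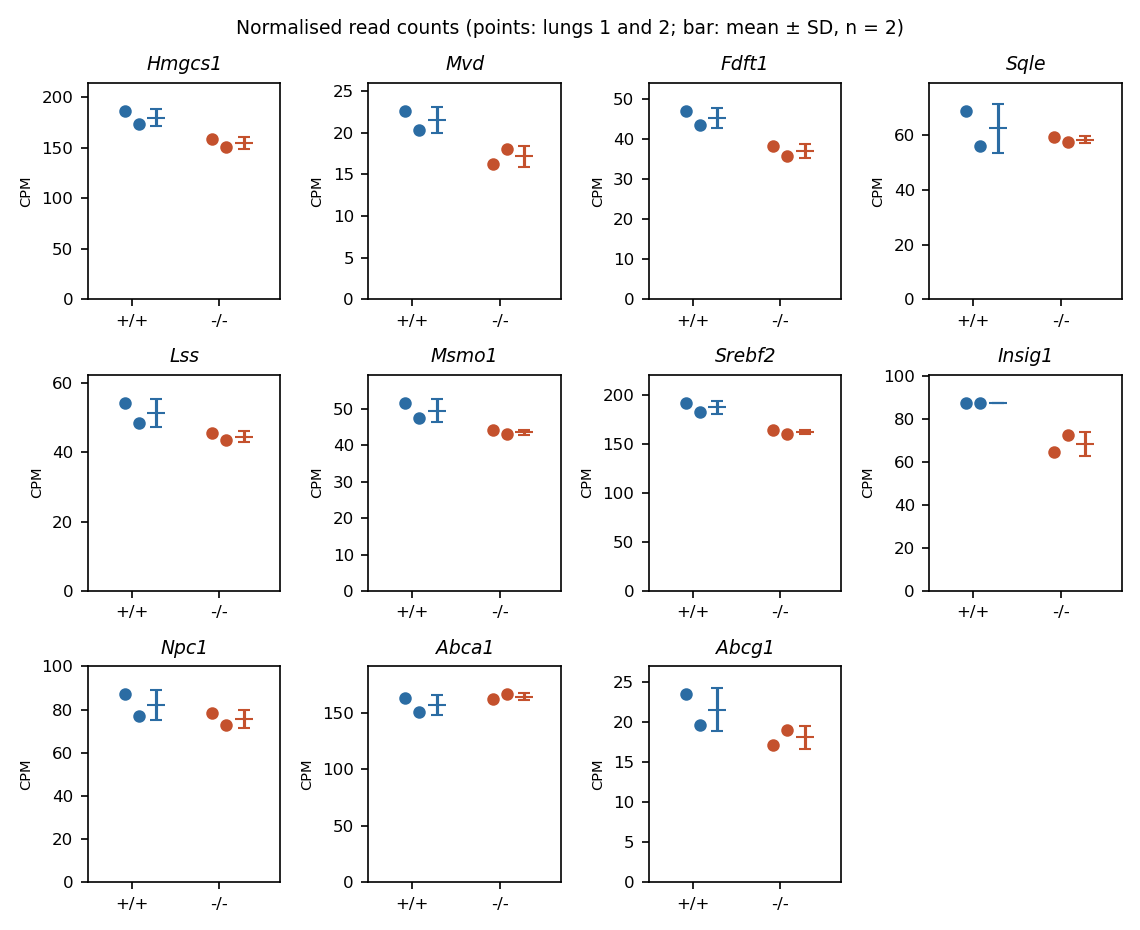
Normalised read counts (CPM, vertical axes from 0) of the 11 genes described in every lung, with a point per lung and the mean ± SD of the 2 lungs of each genotype. The *Myh10-/-* points lie below both *Myh10+/+* points in *Hmgcs1*, *Mvd*, *Fdft1*, *Lss*, *Msmo1*, *Srebf2*, *Insig1* and *Abcg1*, and the genotypes overlap in *Sqle*, *Npc1* and *Abca1*.

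The early part of the pathway, from acetyl-CoA to isoprenoid diphosphates, is covered by 8 of the genes, and none of them passed an adjusted p-value of 0.05. *Hmgcs1* (ENSMUSG00000093930, chromosome 13, 119690379 to 119708260) encodes the cytosolic HMG-CoA synthase that makes the precursor of mevalonate. It was counted at 186 and 173 CPM in *Myh10+/+* lungs and at 158 and 150 CPM in *Myh10-/-* lungs. Both *Myh10-/-* lungs were below both *Myh10+/+* lungs, and the log2 fold change was -0.22 (standard error 0.05, 95% interval -0.34 to -0.10, unadjusted p = 0.00132, adjusted p = 0.0625 from edgeR). An antisense gene covers 557 bases of its exons, and whether strand was used in counting is not stated, so the count of *Hmgcs1* is uncertain.

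*Mvd*, which encodes mevalonate diphosphate decarboxylase, had 22.6 and 20.4 CPM in *Myh10+/+* lungs and 16.3 and 18.02 CPM in *Myh10-/-* lungs, without overlap. Its log2 fold change of -0.32 (standard error 0.09, unadjusted p = 0.00261, adjusted p = 0.0849 from edgeR) was the lowest estimate among the 20 synthesis enzymes, at 79.9% of the wild-type mean. The kinases on either side of mevalonate phosphate differed less. *Mvk* had a log2 fold change of 0.05 and *Pmvk* of -0.11, with intervals that included 0.

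None of the other early genes had an unadjusted p-value under 0.05. *Acat2*, which encodes a thiolase that joins acetyl-CoA units, had a log2 fold change of -0.10, and 40.7% of the 75-base windows along its transcript also occur in other genes, mainly *Acat3*. *Ggps1*, whose product makes geranylgeranyl diphosphate for protein prenylation, had a log2 fold change of 0.03. Genes on the opposite strand cover 257 bases of the exons of *Ggps1* and 323 of those of *Idi1*. *Idi1* and *Fdps*, for isopentenyl diphosphate isomerase and farnesyl diphosphate synthase, were the least counted of the 30 genes, at 6.46 to 9.25 CPM and 4.42 to 5.51 CPM over the lungs. The genotypes overlapped in *Idi1*, while in *Fdps* both *Myh10-/-* lungs, at 4.42 and 5.16 CPM, lay below both *Myh10+/+* lungs, at 5.24 and 5.51 CPM. Both genes share sequence with other annotated genes, 29.1% of windows for *Idi1* and 9.24% for *Fdps*, and 1124 bases of the exons of *Fdps* also belong to a gene on the same strand. Reads with several origins were left out by the authors, so these levels are uncertain. The intervals of the log2 fold changes were also the widest, from -0.39 to 0.29 for *Idi1* and from -0.50 to 0.18 for *Fdps*.

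At the step to squalene and lanosterol, the first committed to sterols, all 3 genes had lower estimates. *Fdft1*, the gene of squalene synthase, had 47.0 and 43.5 CPM in *Myh10+/+* lungs and 38.3 and 35.8 CPM in *Myh10-/-* lungs. The log2 fold change was -0.29 (standard error 0.08, unadjusted p = 0.00312, adjusted p = 0.0915 from edgeR), with no overlap between genotypes. The exons of *Fdft1* overlap those of *Ctsb* on the opposite strand over 774 bases, and 25.4% of its windows are shared, so its count is uncertain.

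*Lss*, the gene of lanosterol synthase, had 54.4 and 48.6 CPM in *Myh10+/+* lungs and 45.7 and 43.5 CPM in *Myh10-/-* lungs. Its log2 fold change of -0.21 had an unadjusted p of 0.0235 and an adjusted p of 0.218 from edgeR. An antisense gene covers 381 bases of the exons of *Lss*. *Sqle*, the gene of squalene epoxidase, a rate-limiting enzyme of the pathway, had 68.5 and 56.0 CPM in *Myh10+/+* lungs and 59.0 and 57.2 CPM in *Myh10-/-* lungs. The 2 wild-type lungs of *Sqle* lay on either side of the *Myh10-/-* lungs, and its log2 fold change was -0.10 (95% interval -0.30 to 0.10) with all lungs and 0.054 without *Myh10+/+* lung 1.

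From lanosterol to cholesterol, 7 of 9 genes had lower estimates and 2 had higher ones, and the summed level of the 9 genes overlapped between genotypes, at 355 and 328 CPM in *Myh10+/+* and 332 and 330 CPM in *Myh10-/-* lungs. *Msmo1*, for the oxidase that removes methyl groups at carbon 4 of the sterol ring, had 51.7 and 47.4 CPM in *Myh10+/+* lungs and 44.1 and 43.1 CPM in *Myh10-/-* lungs. The groups did not overlap, and the log2 fold change was -0.19 (standard error 0.08, unadjusted p = 0.032, adjusted p = 0.248 from edgeR). *Cyp51*, *Hsd17b7*, *Sc5d* and *Dhcr7*, for lanosterol demethylase, a sterol ketone reductase, sterol desaturase and the reductase of 7-dehydrocholesterol, had log2 fold changes from -0.10 to -0.01, and their genotypes overlapped. *Akap9*, on the opposite strand, covers 166 bases of the exons of *Cyp51*.

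The 2 genes of this stretch on chromosome X were *Nsdhl* and *Ebp*, for a sterol dehydrogenase and a sterol isomerase. *Nsdhl* had 29.2 and 22.4 CPM in *Myh10+/+* lungs and 22.0 and 24.8 CPM in *Myh10-/-* lungs. *Ebp* had 18.6 and 18.4 CPM in *Myh10+/+* lungs and 16.2 and 17.2 CPM in *Myh10-/-* lungs, with a log2 fold change of -0.15 (95% interval -0.32 to 0.03). In both genes the lung with high *Xist* had the higher level in each genotype. The same order was found in genes not on chromosome X, among them *Mvd*, *Stard4* and *Abcg1*.

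The reductases of the sterol double bond at carbon 14, *Tm7sf2* and *Lbr*, were the only genes of the 30 in which both *Myh10-/-* lungs lay above both *Myh10+/+* lungs. Among the 18763 genes tested, 4490 had this order. LBR is also a protein of the inner nuclear membrane. The level of *Lbr* was 106 and 105 CPM in *Myh10+/+* lungs and 110 and 109 CPM in *Myh10-/-* lungs, which gave a log2 estimate of 0.05 (95% interval -0.06 to 0.17). *Tm7sf2* had 12.6 and 12.1 CPM against 13.3 and 13.9 CPM, a log2 fold change of 0.14 (95% interval -0.06 to 0.34), and neither passed the test. The exons of *Lbr* overlap *Dnah14* on the opposite strand over 440 bases, and those of *Tm7sf2* overlap *Vps51* on the same strand over 532 bases.

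**Figure D3:**
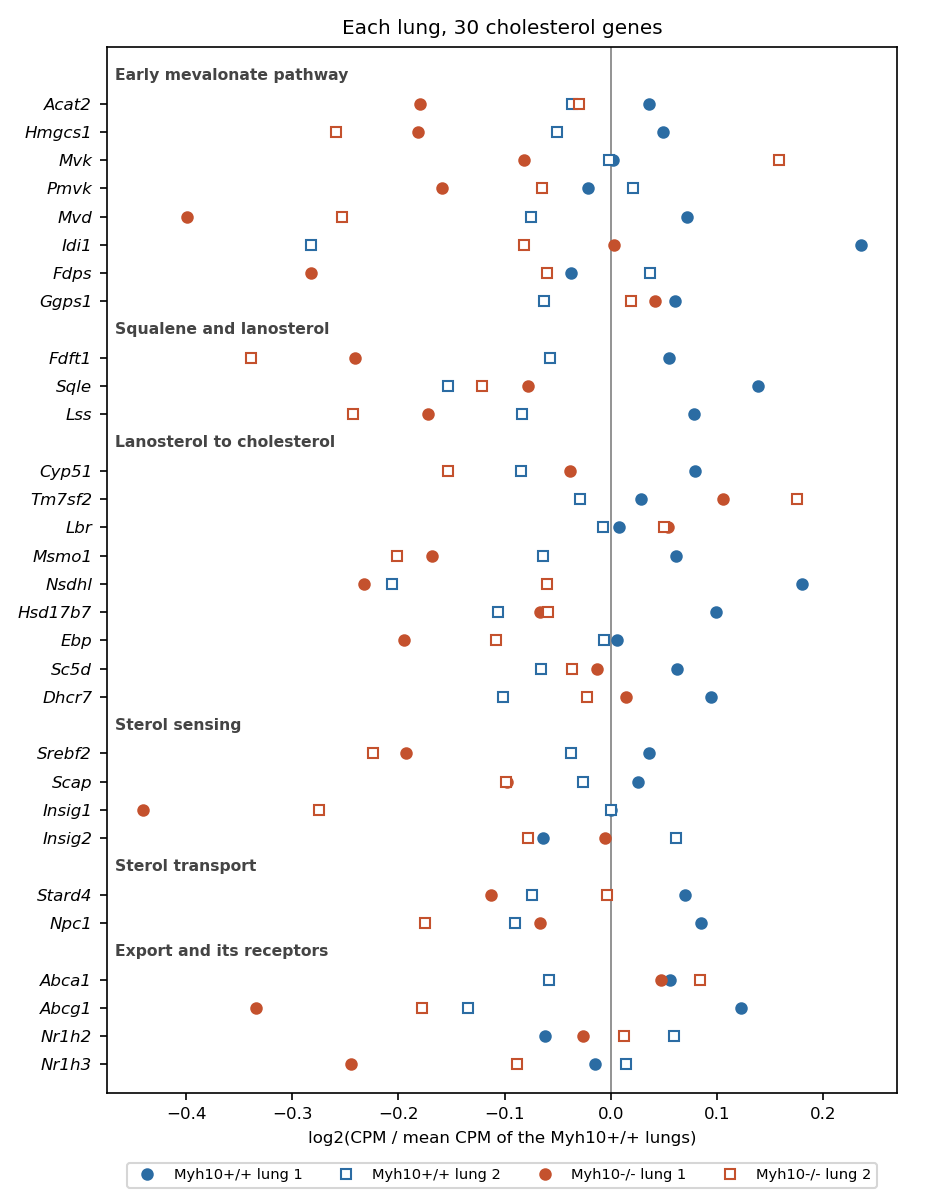
Level of each of the 30 genes in each of the 4 lungs, as log2 of its CPM over the mean CPM of the *Myh10+/+* lungs (horizontal axis), with filled points for lung 1, open squares for lung 2, blue for *Myh10+/+* and orange for *Myh10-/-*. *Myh10+/+* lung 1 lies to the right of lung 2 in 24 of the 30 genes, and the *Myh10-/-* lungs lie to the left of both in 13.

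The transport and export genes differed among themselves. *Stard4*, which encodes a carrier of sterol between membranes, had the highest CPM of the 30 genes, with 230 and 209 CPM in *Myh10+/+* lungs and 203 and 219 CPM in *Myh10-/-* lungs, and the genotypes overlapped. *Npc1*, whose product releases cholesterol from lysosomes after uptake of lipoproteins, had 87.1 and 77.2 CPM against 78.4 and 72.8 CPM, with a log2 fold change of -0.12 (95% interval -0.28 to 0.04). The genotypes overlapped, and opposite-strand genes, among them *Rmc1*, cover 511 bases of its exons, so the count of *Npc1* is uncertain.

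*Abca1*, which encodes the exporter that loads lipid-poor apolipoproteins, had 163 and 151 CPM in *Myh10+/+* lungs and 162 and 166 CPM in *Myh10-/-* lungs. Its log2 fold change of 0.07 (95% interval -0.05 to 0.18, adjusted p = 0.576 from edgeR) did not pass the threshold, and the genotypes overlapped. *Abcg1*, which encodes an exporter to lipoprotein particles with a known part in surfactant and macrophage lipid turnover in the lung, had 23.5 and 19.7 CPM against 17.1 and 19.1 CPM. Its log2 fold change was -0.26 (standard error 0.10, unadjusted p = 0.0198, adjusted p = 0.202 from edgeR), and the gap between genotypes was narrow, from 19.1 to 19.7 CPM.

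The ratio of *Abca1* to *Abcg1* was 6.92 and 7.65 in *Myh10+/+* lungs and 9.45 and 8.70 in *Myh10-/-* lungs, a comparison chosen after the values had been seen and given without a test. Of the receptor genes, *Nr1h3* (LXR alpha) had 34.3 and 35.0 CPM against 29.2 and 32.6 CPM, with a log2 fold change of -0.16 (95% interval -0.34 to 0.01). *Nr1h2* (LXR beta) was at a log2 fold change of -0.01 (95% interval -0.16 to 0.14). The 4 genes of this group together summed to 99.9% of the wild-type mean, and none passed an adjusted p-value of 0.05.

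To compare levels between genes, CPM were divided by the exonic length of the gene in kb. On this scale *Stard4* and *Hmgcs1* had the highest levels in *Myh10+/+* lungs, at 39.3 and 39.1 CPM per kb, followed by *Insig1* at 28.3, *Srebf2* at 26.0, *Lbr* at 22.2 and *Nr1h2* at 21.8 CPM per kb. In *Myh10-/-* lungs *Stard4* was at 37.8, *Hmgcs1* at 33.6, *Srebf2* at 22.5 and *Insig1* at 22.1 CPM per kb. *Lbr*, at 23.0 CPM per kb, then stood level with *Srebf2* and *Insig1*. The lowest were *Idi1*, at 2.24, and *Fdps*, at 1.28 CPM per kb in *Myh10+/+* lungs, both of them genes with shared sequence.

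A further list of 44 genes of sterol metabolism covers ketone and acetyl-CoA activation, esterification, lysosomal release, lipoprotein receptors and oxysterols. Of these, 1 (2.27%) fell past an adjusted p-value of 0.05, against 1.34% of all tested genes, and none rose. This was *Srebf1*, the gene of SREBP1, with 128 and 130 CPM in *Myh10+/+* lungs and 99.6 and 110 CPM in *Myh10-/-* lungs. The genotypes did not overlap, and edgeR estimated a log2 fold change of -0.30 with a standard error of 0.06 and an adjusted p of 0.0293. The adjusted p of *Srebf1* was 0.0856 without *Myh10+/+* lung 1 and 0.0692 without *Myh10+/+* lung 2, so the call was lost in both cases, with log2 fold changes of -0.31 and -0.29. An opposite-strand gene, *Rai1*, overlaps its exons. At an unadjusted p-value under 0.05, 11 genes of this list (25%) had a lower estimate, against 9.02% of all tested genes, and 1 a higher one. The median log2 fold change was -0.06. Those with the lowest p-values after *Srebf1* were *Soat1* (log2 fold change -0.22), for an enzyme that esterifies cholesterol, *Pltp* (-0.29), for a phospholipid transfer protein, *Cyb5r3* (-0.20), which supplies electrons to sterol desaturation, and *Npc2* (-0.37), for the lysosomal partner of NPC1. Their adjusted p-values from edgeR were 0.0522, 0.0568, 0.0575 and 0.0729, none of which passed.

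Fatty acid synthesis, driven mainly by SREBP1, is given for comparison. Of 15 genes, 14 could be tested and 3 of these (21.4%) fell past an adjusted p-value of 0.05, against 1.34% of all tested genes. *Scd1*, a stearoyl-CoA desaturase gene, had a log2 fold change of -1.70 (adjusted p = 4.99e-04), *Fasn*, for fatty acid synthase, of -0.48 (adjusted p = 0.0036), and *Acly*, for ATP citrate lyase, of -0.21 (adjusted p = 0.0407, all from edgeR). The call of *Acly* was lost without *Myh10+/+* lung 1 or lung 2, with adjusted p-values of 0.266 and 0.139, and those of *Scd1* and *Fasn* held without any single lung. The median log2 fold change of this list was -0.18, and its summed level in *Myh10-/-* lungs was 76.7% of the wild-type mean, against 92.6% for the 20 enzymes of cholesterol synthesis. The largest part of the fatty acid sum was *Scd2*, at 1696 and 1520 CPM in *Myh10+/+* lungs and 1155 and 1281 CPM in *Myh10-/-* lungs. *Scd2* did not pass (adjusted p = 0.0784 from edgeR). Whether the lists differ was not tested.

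Most markers of the lung epithelium also had lower estimates in *Myh10-/-* lungs. Of 11 AT2 markers 9 fell past an adjusted p-value of 0.05, and their summed level was 10014 and 9483 CPM in *Myh10+/+* lungs and 6640 and 7856 CPM in *Myh10-/-* lungs. *Sftpc*, a defining AT2 gene, was at 5815 and 5630 CPM against 3876 and 4750 CPM, and with an adjusted p of 0.173 from edgeR it did not pass. *Etv5*, the other AT2 marker that did not pass, had a log2 fold change of 0.01. For the same mutant the paper reports more AT2 cells and higher *Sftpa*, *Sftpc* and *Abca3*, at a stage its main text does not give. It also reports lower AT1 markers and LAMP3. In the E17 RNA here the log2 fold changes of *Sftpa1*, *Sftpc* and *Abca3* were -0.57, -0.41 and -0.26. The reason for this difference from the paper was not tested. Of 8 alveolar type 1 (AT1) markers 7 fell past an adjusted p-value of 0.05. The summed level of the 8 was 3005 and 2883 CPM against 2017 and 2351 CPM. Of 6 pan-epithelial markers 3 fell past this threshold, with summed levels of 1515 and 1528 CPM against 1327 and 1366 CPM. *Nkx2-1*, which defines the lung epithelium, was at 434 and 455 CPM against 455 and 448 CPM. The genotypes also overlapped in *Epcam*, at 144 and 152 CPM against 148 and 139 CPM.

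In *Myh10-/-* lung 1 the AT2 and AT1 sums were lower than in *Myh10-/-* lung 2, and so were *Insig1*, *Mvd*, *Abcg1*, *Nr1h3* and *Srebf1*, whereas *Srebf2*, *Hmgcs1*, *Fdft1*, *Lss* and *Msmo1* were lower in lung 2. Mesenchymal markers summed to 5081 and 5240 CPM against 5064 and 4912 CPM with none of 6 past the threshold. Endothelial markers summed to 1408 and 1356 CPM against 1277 and 1248 CPM. All 6 had lower estimates, and 1 of them, *Cldn5*, passed the threshold. The 6 markers of cycling cells had summed levels of 1527 and 1464 CPM in *Myh10+/+* and 1814 and 1681 CPM in *Myh10-/-* lungs. None of the 6 passed an adjusted p-value of 0.05, but all 6 had higher estimates with an unadjusted p-value under 0.05 (edgeR). In each of the 6 both *Myh10-/-* lungs lay above both *Myh10+/+* lungs, an order found in 4490 of the 18763 genes tested. The part of these cell populations in the values of the cholesterol genes was not tested.

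**Figure D4:**
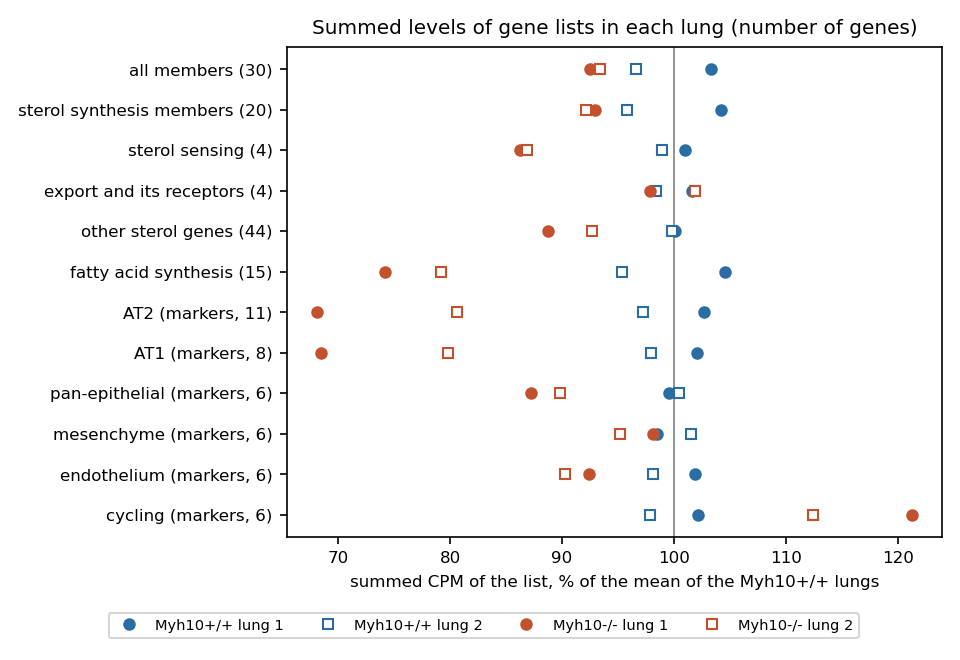
Summed CPM of each gene list in each lung, as a percentage of the mean of the 2 *Myh10+/+* lungs (horizontal axis), with filled points for lung 1 and open squares for lung 2. In *Myh10-/-* lungs the 20 synthesis genes average 92.6%, the sensing genes 86.5%, the export group 99.9% and the fatty acid genes 76.7%, beside 74.3% for AT2, 74.2% for AT1 and 117% for cycling markers.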

How the data were processed

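The authors deposited raw read counts per Ensembl gene for 4 lungs, with no normalization. Per the labels and the paper's methods, these counts came from stranded mRNA libraries read over 75 bases from one end, quality-trimmed (Reaper), mapped to GRCm38 by STAR 2.4.0a and counted on exons by featureCounts 1.5.1. Reads with more than 1 gene or more than 1 place in the genome were dropped, and whether strand was used is not stated in the sources used here. Groups were taken from the sample titles. The labels number lungs 1 and 2 within each genotype, and the deviations of same-numbered lungs had a correlation of -0.214 across genes, so the numbers were not used as pairs in the test reported.

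The counts were tested with edgeR 4.0.16 in R 4.3.3 (TMM, glmQLFit, glmQLFTest, genotype alone) on the 18763 genes whose counts averaged 5 or more, with Benjamini-Hochberg adjustment over all of them. A 95% interval is the log2 fold change plus or minus its standard error times the t quantile of that fit. On counts simulated for 18510 genes of this comparison, 80 of 103 genes with a log2 change of 1 and 47 of 92 with a change of 0.5 were called, and 7 of 18315 unchanged genes. These changes were larger than any estimate of the 30 genes (-0.35 to 0.14), so they give no rate for changes of that size. Each simulated gene varied by the trend for its level and not by a spread of its own. Replicates of *Myh10+/+* and *Myh10-/-* differed by more than counting error (chi-square per degree of freedom 5.59 and 9.27), so that 2 lungs per genotype limit the precision. The typical 95% half-width for the 30 genes was 0.17 on the log2 scale. Positions, exonic lengths and overlaps came from GENCODE M21, on the build of the files. Shared sequence is the share of 75-base windows of a gene's longest transcript that occur in another gene's transcript.

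The 30 genes, the further lists and the cell type markers were chosen with earlier results of these data known. Values in every lung are given for genes with an unadjusted p-value under 0.05 and for *Hmgcs1*, *Sqle*, *Insig1*, *Srebf2*, *Npc1* and *Abca1*, and of the further sterol and fatty acid genes those past the threshold are named. *Soat1*, *Pltp*, *Cyb5r3*, *Npc2* and *Scd2*, and the lung values of genes outside the rule such as *Insig2* and *Scap*, were added after their values had been seen. Genes of the pathway outside these lists are not analysed here. DESeq2 1.42.0 and the other fits served as alternatives.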

Additional observations from a re-analysis of the deposited data

How the results depend on the processing

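With 13 other fits the number of the 30 genes past an adjusted p-value of 0.05 was 5 with no filter on low counts, 3 with robust = TRUE and 3 with the replicate block, and between 0 and 4 when single lungs were dropped. It was 1 in the others. The genes added to *Insig1* were *Srebf2* and *Hmgcs1* (robust, replicate block), with *Mvd* and *Fdft1* too without a filter. The 0 came without *Myh10+/+* lung 1, and the 4 without *Myh10-/-* lung 2. With a lung left out, 5 to 11 genes had an unadjusted p-value under 0.05, the median of the 20 enzymes lay between -0.16 and 0.015, and *Sqle* between -0.24 and 0.054. The lone lung of a genotype is then assumed to vary like the others. Over all genes 1162 passed with no filter, 474 with robust = TRUE, 710 with the replicate block and 206 to 1643 with a lung left out. Of the further sterol genes, 6 passed with no filter, 4 with robust = TRUE, 4 with the Wald test of DESeq2, 6 with the replicate block, 3 with chromosomes X, Y and MT removed, 3 with the crossed block and 0 to 9 with a lung left out. Of the fatty acid genes 5 passed with no filter and 2 to 5 with a lung left out. The cause was not tested. Because the correlation of same-numbered lungs was negative, the crossed numbers were added as a block after the data had been seen, with 415 genes and 1 of the 30 called. Outside chromosomes X, Y and MT that correlation was -0.019. The crossed block puts the lungs with high *Xist* together and the lungs with low *Xist* together.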

Other observations

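Other cell lists gave these values. Liver markers, of an organ that makes much cholesterol, summed to 9.95 and 5.99 CPM in *Myh10+/+* lungs and 9.27 and 4.07 CPM in *Myh10-/-* lungs, with *Alb* between 2.73 and 6.29 CPM and none of the 3 tested genes past an adjusted p-value of 0.05 (0 at an unadjusted p-value under 0.05, edgeR). Macrophage markers summed to 119 and 110 CPM against 106 and 112 CPM with none of 6 past the adjusted threshold and 2 lower at an unadjusted p-value under 0.05. Cardiac muscle markers summed to 183 and 234 CPM against 147 and 134 CPM. All 4 tested genes had lower estimates, and 3 of them passed the adjusted threshold. Erythroid markers summed to 1418 and 1814 CPM against 1230 and 1407 CPM. All 5 had lower estimates, and only *Alas2* passed the adjusted threshold.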
